A study of Mus musculus with 6 samples.

Results

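The endocannabinoid system of the mouse nucleus accumbens was examined through 7 genes, the cannabinoid receptor gene Cnr1 and the enzyme genes Dagla, Daglb, Mgll, Faah, Napepld and Abhd6. They were chosen by name as the receptor and the enzymes that make or break down its ligands, and each matched 1 of the 21540 gene records in the authors' deposited table. All 7 were among the 14959 records marked as tested. The RNA came from nucleus accumbens tissue of C57BL/6 mice. The cocaine group (3 libraries) was given cocaine at 20 mg/kg by intraperitoneal injection on each of 7 days and the saline group (3 libraries) served as its control, and the source labels of both name 4 h of withdrawal. For the saline libraries the protocol text is the same as for cocaine, so their group was taken from the treatment label. The sources used here give neither age and sex nor the number of animals behind a library, so any spread between libraries may be technical.

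Endocannabinoids are lipid messengers made on demand from membrane phospholipids and released by postsynaptic cells. They act mostly on the CB1 receptor, a Gi/o-coupled receptor on axon terminals, where they lower transmitter release. The main ligands are 2-arachidonoylglycerol (2-AG), made by diacylglycerol lipases and broken down largely by monoacylglycerol lipase, and anandamide, an N-acyl ethanolamine broken down by fatty acid amide hydrolase. In the accumbens this signalling is known for long-term depression of excitatory inputs, whose cell bodies lie in other brain regions, so a receptor carried on those terminals is not read from the RNA of the tissue itself.

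Each gene has 1 value per group, in fragments normalised to transcript length and library total (FPKM), which allows levels of different genes to be set side by side because transcript length is divided out. The authors' deposited table holds no value per library, so neither the range between replicates nor whether the libraries of both groups overlap can be given, and the read depth is unknown. An error was therefore approximated for each gene as the standard error that a two-sided normal test of the log2 ratio would need in order to give the deposited p-value. It carries whatever spread the authors' test used, and the 95% intervals below rest on that reading of the p-value.

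The levels of all 7 transcripts were nearly the same in both groups. By the authors' deposited q-value, adjusted over the whole table, 0 of the 7 genes passed q < 0.05, where 1.23% of all tested records passed. At q < 0.01 it was again 0 of the 7, against 0.796% of the tested records, and at an unadjusted p under 0.05 it was 0 of the 7, against 5.76%. With the p-values adjusted anew over the 12984 records that reached 1 FPKM in either group, 0 of the 7 passed, against 1.55%. The deposited log2 fold changes, cocaine over saline, ran from -0.08 for Daglb to 0.05 for Cnr1, and 6 of the 7 lay below 0. Over all tested records 59.0% lay below 0. The median of the 7 was -0.04, beside a median of -0.02 over all tested records. In bulk tissue fewer cells of a type and less RNA per cell cannot be told apart, and this holds for every value here.

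**Figure D1:**
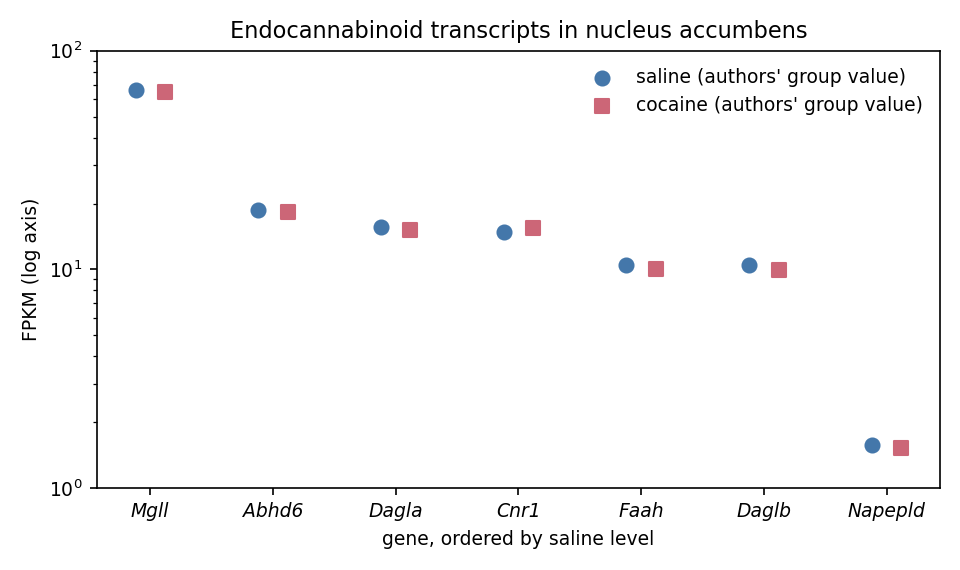
Group values of the 7 genes in FPKM on a log axis, ordered by the saline level, with circles for saline and squares for cocaine, each the authors' value over 3 libraries with no error deposited. The groups nearly coincide for every gene, and Mgll at 66.3 and 64.6 FPKM stands far above Napepld at 1.57 and 1.52 FPKM.

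Cnr1 encodes the CB1 receptor. Its authors' group value was 14.9 FPKM after saline and 15.4 FPKM after cocaine, a level above 63.7% and 65.0% of the tested records. It was the only one of the 7 with a higher value in the cocaine group. In the authors' deposited table its log2 fold change was 0.05 (p = 0.302, q = 0.999976), with an approximate standard error of 0.05. The approximate 95% interval ran from -0.05 to 0.16, which is 0.967-fold to 1.12-fold. No change was detected, and a rise above 1.12-fold or a fall below 0.967-fold lay outside the interval. A smaller change could not be told from 0 at this precision.

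The 2-AG synthesising enzymes are the diacylglycerol lipases. Dagla encodes DAGL alpha, the form responsible for most 2-AG in the adult brain and for retrograde signalling at synapses, and it stood at 15.6 FPKM after saline and 15.1 FPKM after cocaine. Its log2 fold change in the authors' deposited table was -0.05 (p = 0.277, the smallest p of the 7), with an approximate 95% interval from -0.14 to 0.04, or 0.906-fold to 1.03-fold. Daglb encodes DAGL beta, best known from macrophages and microglia, and it stood at 10.4 FPKM and 9.89 FPKM. This was the lowest log2 fold change of the 7 in the authors' deposited table (-0.08, p = 0.444), with an approximate interval from -0.27 to 0.12. The ratio of Dagla to Daglb was 1.497 after saline and 1.523 after cocaine.

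The Daglb value has a limit of its own. In GENCODE mouse release 21, an annotation of a later genome build than the authors', 24.1% of the exonic bases of Daglb lie opposite exons of Rac1, a far more abundant transcript. Rac1 stood at 126 and 123 FPKM, and the authors' deposited table lists a log2 fold change of -0.03 for it (p = 0.404). Whether the authors counted by strand is not stated in the labels or the file, and without strand, reads from the shared stretch cannot be assigned to either gene, so the level of Daglb is uncertain. Mgll shares 3.29% of its exonic bases with an antisense gene, Gm26588, and the other 5 genes share none with any annotated gene.

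The enzymes that break down 2-AG were the most abundant of the 7. Mgll encodes monoacylglycerol lipase, which ends most 2-AG signalling from within the axon terminal and is also found in astrocytes. It stood at 66.3 FPKM after saline and 64.6 FPKM after cocaine, above 91.6% of the tested records in both groups, and made up 48.1% and 47.9% of the summed FPKM of the 7 genes. In the authors' deposited table its log2 fold change was -0.04 (p = 0.470), with an approximate interval from -0.13 to 0.06, or 0.911-fold to 1.04-fold. Abhd6 encodes a membrane-bound hydrolase of 2-AG on the postsynaptic side. It stood at 18.6 and 18.4 FPKM, and the authors' deposited table gives a log2 fold change of -0.02 (p = 0.823), with an approximate interval from -0.20 to 0.16. The ratio of Mgll to Abhd6 was 3.56 after saline and 3.52 after cocaine.

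The anandamide enzymes were the least precisely measured of the 7. Napepld encodes NAPE-PLD, a phospholipase D that releases N-acyl ethanolamines from their membrane precursors. It stood at 1.57 FPKM after saline and 1.52 FPKM after cocaine, the lowest level of the 7 and above only 18.8% and 18.7% of the tested records. Its log2 fold change in the authors' deposited table was -0.04 (p = 0.838), with an approximate interval from -0.47 to 0.38, or 0.722-fold to 1.30-fold. Faah encodes fatty acid amide hydrolase, the main enzyme that degrades anandamide. It stood at 10.43 FPKM after saline and 10.01 FPKM after cocaine, and the authors' deposited table gives a log2 fold change of -0.06 (p = 0.784), with an approximate interval from -0.48 to 0.36. That interval is over 4 times as wide as that of Cnr1 or Dagla, although the level of Faah is not far below theirs. For Faah the interval runs from 0.716-fold to 1.29-fold, so a moderate change of either anandamide enzyme was not detectable at this precision.

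**Figure D2:**
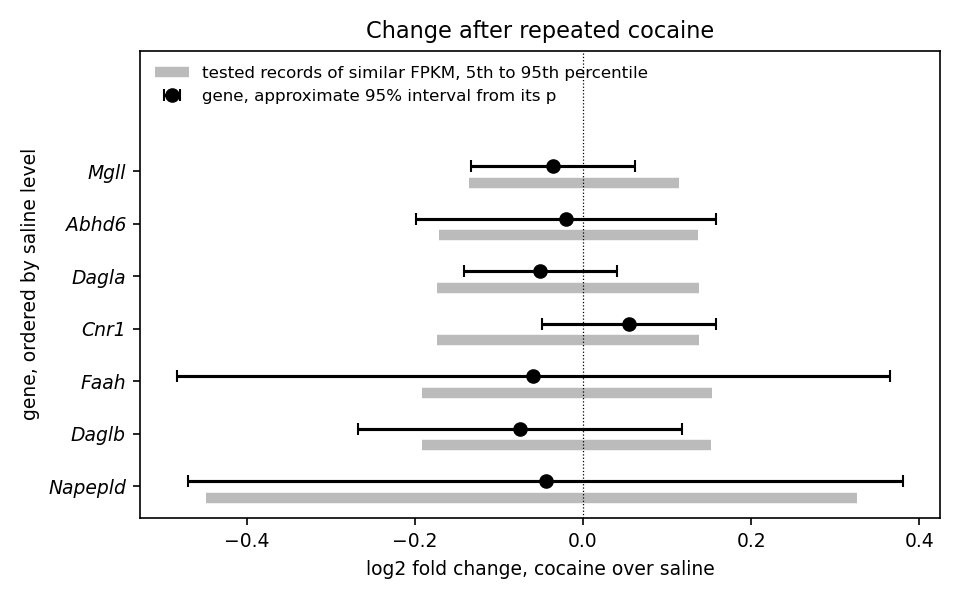
Deposited log2 fold change of the 7 genes, cocaine over saline (points), with the approximate 95% interval derived from the deposited p (bars), above the range from the 5th to the 95th percentile of tested records within 1.5 times of the gene's mean FPKM (grey). Every interval crosses 0, and those of Faah and Napepld are the widest.

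The order of levels was Mgll, Abhd6, Dagla, Cnr1, Faah, Daglb and Napepld in the saline group. In the cocaine group Cnr1 and Dagla traded places and the rest of the order was the same. The authors' table gives no spread for a level, and the neighbours Dagla and Cnr1 at 15.6 and 14.9 FPKM, or Faah and Daglb at 10.43 and 10.42 FPKM after saline, cannot be ordered without one. The ratio of Cnr1 to Dagla was 0.952 after saline and 1.02 after cocaine. Its log2 difference of 0.11 had an approximate standard error of 0.07 when both genes were taken as independent. This was 1.49 standard errors, the largest such difference among the 10 gene pairs whose ratio was computed, and that of Mgll and Cnr1 was 1.25 standard errors. The approximate 95% interval of the difference held 0 for each of the 10 pairs. The summed diacylglycerol lipases stood at 0.307 of the summed 2-AG hydrolases Mgll and Abhd6 after saline and at 0.301 after cocaine. That ratio leaves out the hydrolase Abhd12 of the wider list below (123 and 133 FPKM) and includes the uncertain level of Daglb. It is therefore no measure of 2-AG synthesis against breakdown.

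Set beside records of similar abundance, the differences of the 7 genes lay within the usual spread. Of the 3077 other tested records within 1.5 times of the mean FPKM of Cnr1, 53.2% had a larger absolute log2 fold change, and their values ran from -0.17 to 0.14 between the 5th and 95th percentiles. For Dagla the share with a larger change was 56.3%, for Daglb 43.4%, for Faah 53.6% and for Mgll 60.1%. For Abhd6 and Napepld it was 79.5% and 80.7%. All 7 genes lay between the 5th and 95th percentiles of records at their own level.

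These neighbours in abundance also show which sizes of change the authors' test passed at such levels. Around Mgll, 37 of 1254 records passed q < 0.05, and the smallest absolute log2 fold change among them was 0.05. Around Cnr1, 30 of 3077 passed, with a smallest change of 0.09 and a median of 0.18. Around Daglb, 24 of 3070 passed, with a smallest change of 0.10. These smallest changes are not limits of detection for Mgll, Cnr1 and Daglb themselves, since passing also depends on a record's own error. The approximate standard errors of these genes were 0.05, 0.05 and 0.10, beside medians of 0.07, 0.11 and 0.12 among their neighbours. Around Napepld only 2 of 1457 passed, with a smallest change of 0.36. The approximate standard error of Napepld itself was 0.22, beside a median of 0.26 among its neighbours. That of Faah was 0.22, beside 0.12. With errors of this size a small change of either gene was not detectable.

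Across the table, records with GC-poor transcripts tended to have higher log2 fold changes. Over the 12639 records that reached 1 FPKM and have a matched transcript, the log2 fold change had a Spearman's rho of -0.30 with the GC content of the longest transcript, a value across genes, which are no independent replicates. With the length of that transcript the rho was 0.18. Of the 7 genes, Cnr1 had the lowest GC content (44.9%) and the longest transcript (5807 bases), and it was the one with a log2 fold change above 0. Dagla and Faah were nearly as long (5634 and 5537 bases) and Napepld was nearly as GC-poor, and each of these lay below 0. Dagla had the highest GC content at 58.8%, and Mgll followed at 55.3%, Faah at 52.4%, Daglb at 49.9%, Abhd6 at 48.4% and Napepld at 45.8%. With the median of records of like GC content and length subtracted, the log2 fold change of Cnr1 was 0.04, that of Dagla was -0.0089, that of Mgll was -0.0056 and that of Abhd6 was 0.01. Those of Daglb, Faah and Napepld were -0.06, -0.04 and -0.03. The value of Abhd6 thus changed sign, from a deposited -0.02, and the median of the 7 went from -0.04 to -0.0089. The part of transcript composition in these differences was not tested further.

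**Figure D3:**
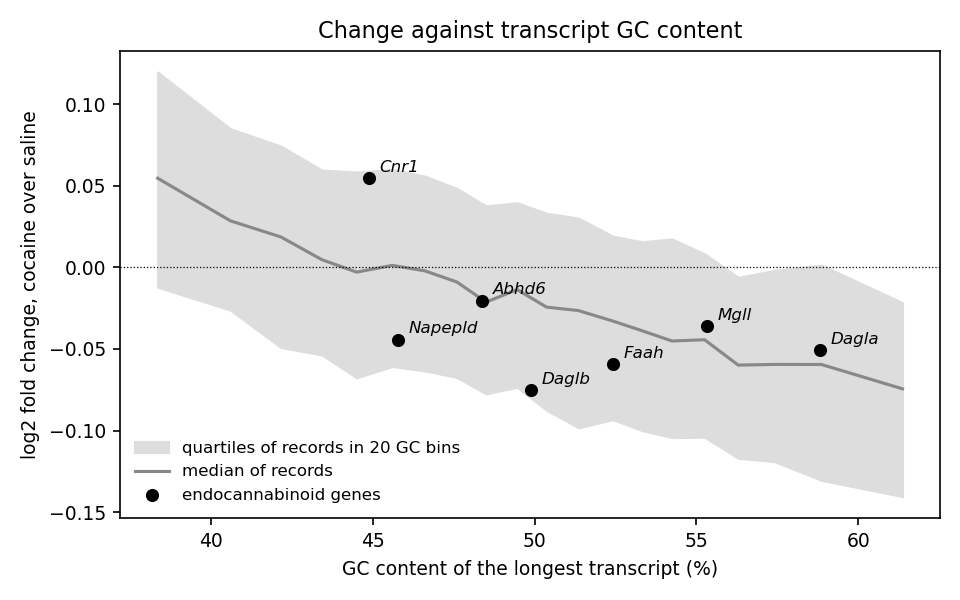
Deposited log2 fold change, cocaine over saline, of the 7 genes against the GC content of their longest transcript in percent (points), over the median (line) and quartiles (shading) of records of at least 1 FPKM in 20 bins of equal size. Cnr1 at 44.9% GC lies above 0, and the GC-rich Dagla and Mgll lie close to the median of records with their GC content.

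A wider list of 41 genes for other receptors, receptor partners, alternative synthesis and breakdown routes and carriers of endocannabinoids was read in the same way. All 41 have a record, 32 were tested and 28 reached 1 FPKM in the higher group. By the authors' deposited q-value 0 rose, 0 fell and 28 did not pass, where 0.521% of all tested records rose and 0.709% fell. At an unadjusted p under 0.05, 0 were higher and 1 was lower, against 2.02% and 3.74% of all tested records. The median log2 fold change of the 28 was -0.01, with 13 above and 15 below 0.

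The gene with an unadjusted p under 0.05 was Fabp7, a brain fatty acid binding protein of astrocytes and neural progenitors that can carry endocannabinoids inside the cell. It stood at 21.1 FPKM after saline and 17.3 FPKM after cocaine, and the authors' deposited table gives a log2 fold change of -0.28 (p = 0.00421, q = 0.258), with an approximate interval from -0.48 to -0.09. The related carriers Fabp5 and Fabp3, named after their values were seen, had log2 fold changes of -0.10 (p = 0.119) and -0.05 (p = 0.405) in the authors' deposited table. Both approximate intervals held 0, and of the 6 carriers on the list 4 lay below 0 and 2 above. The sum of 6 astrocyte markers was 1079 FPKM after saline and 1071 FPKM after cocaine. Most of it, 796 and 787 FPKM, belonged to Aldoc, named after its values were seen. Of the 6 astrocyte markers 0 passed q < 0.05, with Gfap at -0.16 and Aqp4 at 0.19 in the authors' deposited table, and their part in the Fabp7 value was not tested.

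Abhd12, a further hydrolase that acts on 2-AG and on lysophosphatidylserine, had the next smallest p. It stood at 123 and 133 FPKM, and the authors' deposited table gives a log2 fold change of 0.11 (p = 0.0563, q = 0.999976). By level it was the most abundant 2-AG hydrolase measured here, above Mgll in both groups. Plcb3, a phospholipase C beta that makes the diacylglycerol from which 2-AG is formed, stood at 4.08 and 3.74 FPKM (log2 fold change -0.13 and p = 0.108 in the authors' deposited table). The largest absolute value among the 28 belonged to Inpp5d, a phosphatase known from microglia and blood cells and singled out here after its value was seen. It stood at 7.06 and 9.06 FPKM (log2 fold change 0.36 and p = 0.250 in the authors' deposited table), with an approximate interval from -0.25 to 0.98.

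The 8 other receptors of the list all had lower levels than Cnr1. The highest was Trpv2, a cation channel, at 4.85 and 5.16 FPKM, and Ppara, a nuclear receptor for fatty acid derivatives, stood at 1.10 and 1.34 FPKM. Cnr2, which encodes the CB2 receptor of immune cells, stood at 0.0932 FPKM after saline and 0.114 FPKM after cocaine, and Trpv1, an anandamide-sensitive cation channel, at 0.0760 and 0.126 FPKM. Both were marked as not tested in the authors' deposited table, and no fold is given at such levels. Gpr55, a lysophospholipid receptor that also responds to some cannabinoids, stood at 1.70 and 1.90 FPKM (log2 fold change 0.16 and p = 0.305 in the authors' deposited table). Cnrip1 and Sgip1, which encode proteins that bind the CB1 receptor, were named after their values were seen. They stood at 15.7 and 16.0 FPKM and at 74.7 and 73.4 FPKM, with log2 fold changes of 0.03 and -0.02 in the authors' deposited table.

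**Figure D4:**
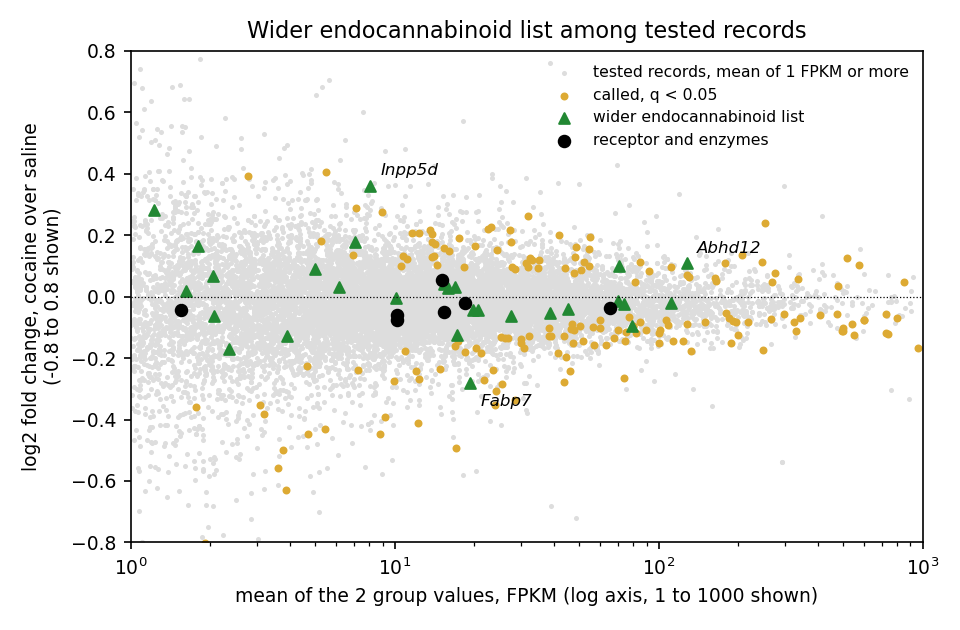
Deposited log2 fold change, cocaine over saline, against the mean of both group values in FPKM (log axis) for tested records (grey), records with q < 0.05 (yellow), the 28 genes of the wider list that reached 1 FPKM (triangles) and the 7 receptor and enzyme genes (black). The black points lie between -0.08 and 0.05, and Fabp7 at -0.28 and Inpp5d at 0.36 mark the ends of the wider list.

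The tissue label was set beside markers of cell types, which cannot tell the nucleus accumbens from other tissue with the same cells. The 12 markers of medium spiny neurons, the principal neurons of the region, all had values of 63.3 FPKM or more after saline, among them Ppp1r1b (829 FPKM), Adora2a (120 FPKM), Drd2 (91.2 FPKM) and Drd1a (65.0 FPKM). Of the 12, 0 passed q < 0.05 in the authors' deposited table, 10 lay below 0, and at an unadjusted p under 0.05 there were 3 lower and 0 higher. Their sum was 3702 FPKM after saline and 3615 FPKM after cocaine. Markers of other cell types that could carry these genes were read beside them. Cck, a neuropeptide gene of CB1-rich interneurons that cortical neurons also express, fell from 48.0 to 39.6 FPKM (log2 fold change -0.28, q = 0.0127 in the authors' deposited table). Slc17a7, a vesicular glutamate transporter gene of cortical neurons, fell from 49.9 to 44.9 FPKM (log2 fold change -0.15, q = 3.70e-05 in the authors' deposited table). The sum of 7 cortical markers was 60.8 FPKM after saline and 54.5 FPKM after cocaine. Among the 9 genes listed for CB1-rich and other interneurons, Cck alone passed and 8 did not, with 6 below 0 and 3 above 0. The 3 above 0, named after their values were seen, were Pvalb at 0.40, Vip at 0.19 and Npy at 0.10. The 9 genes summed to 805 and 795 FPKM, of which Sst, also named afterwards, held 328 FPKM in both groups. A further 324 and 317 FPKM of that sum belonged to Gad1, named after its values were seen, which the GABAergic medium spiny neurons also express. The sum is therefore no measure of interneurons alone.

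Among the remaining lists, 6 microglial markers summed to 84.8 and 86.7 FPKM with 0 passing, and 6 oligodendrocyte markers to 2714 and 2756 FPKM with 0 passing. The 6 endothelial markers summed to 42.0 and 35.0 FPKM, and Cldn5 fell (log2 fold change -0.45, q = 0.00123 in the authors' deposited table). The 6 choroid plexus markers summed to 8.96 and 18.8 FPKM, and of these Ttr rose (0.668 and 10.8 FPKM, with a q listed as 0 in the authors' deposited table). Clic6 stood at 6.42 and 5.65 FPKM and Kl at 1.46 and 1.42 FPKM. Folr1, Kcne2 and Aqp1 had higher values after cocaine and stayed under 1 FPKM in both groups. Folr1 stood at 0.234 and 0.618 FPKM and did not pass. Its log2 fold change was 1.40 (p = 0.490, q = 0.999976 in the authors' deposited table). Kcne2 (0.0594 and 0.104 FPKM) and Aqp1 (0.117 and 0.158 FPKM) were marked as not tested in that table. No fold is given for them at such levels. None of the values in these marker lists was at 0. Their part in the levels of the 7 genes was not tested.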

How the data were processed

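RNA sequencing libraries of nucleus accumbens tissue, 3 per group, were grouped by their treatment label. TopHat2 2.0.6, Cufflinks 2.0.2 and the build NCBIM37 are named in the submitters' processing notes, with settings, annotation and strand not stated there or in the labels. The deposited values were treated as FPKM from the layout of the table, 1 per group, since the unit is not written in it. Each p-value and q-value was taken as deposited, from a test that the authors ran. The log2 fold change was deposited by the authors, and it differed from the ratio of the group values by at most 1.28e-05. Depth is unknown, so no counting interval was computed.

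Genes with a deposited q < 0.05 were called. Approximate standard errors were the absolute log2 fold change over the normal quantile of the deposited p, computed with scipy 1.17.1. A check on simulated data drew its p-values from the same normal test, so it covers the arithmetic only. Whether the deposited p-values came from such a test was not tested. The longest transcript per gene of GENCODE mouse release 21 gave GC content and length, matched by identifier for 97.3% of records of at least 1 FPKM and for all 7 genes, and the trend was removed in 10 by 10 bins. That annotation belongs to another build, so no coordinates are printed. Records within 1.5 times of a gene's mean FPKM served as neighbours in abundance.

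The members and lists were chosen with earlier results of these data known, and no set test was run. Named genes were the 7 members, the 3 wider-list genes with the smallest p, Cnr2, Gpr55, Trpv1, called markers and tissue markers (1 of them is not reported here), and others are marked where named or stand for a list. A test per library was planned for a table with values per library and was not run. Alternatives were other pseudocounts, call thresholds, an expression minimum, scalings and the trend removal.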

Additional observations from a re-analysis of the deposited data

How the results depend on the processing

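The 7 genes gave 0 calls at the deposited q < 0.05, at q < 0.01, at an unadjusted p under 0.05 and with p-values adjusted again over records of at least 1 FPKM. Pseudocounts of 1 and 0.1, median centring, rescaling without the mitochondrially encoded records and Ttr, and removal of the GC and length trend gave 35 log2 fold changes, between -0.07 and 0.08. All 35 stayed within 1 approximate standard error of the deposited value, and 2 changed sign, both of Abhd6 (0.00068 after centring and 0.01 after trend removal). The median of the 7 lay between -0.04 and -0.0089. Centring moved all values by 0.02 and the rescaling by 0.00050. Both shifts are smaller than the smallest approximate standard error of the 7 (0.05, Dagla), so neither could take a value out of that range. The pseudocounts only draw a value toward 0, and at these levels by too little to leave that range. Only the 7 values after trend removal could have left it, and the largest shift was 0.04. The wider list gave 0 calls with or without the expression minimum and 1 at an unadjusted p under 0.05, Fabp7. No paired analysis was possible because the table holds 1 value per group, and leaving out a library was not possible for the same reason.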
